A study of Mus musculus with 2 samples.

Results

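The 10 genes described here are effectors and targets of the Hippo pathway. They comprise the co-activator genes Yap1 and Wwtr1 (which encodes TAZ), the TEAD transcription factor genes Tead1 and Tead3, the kinase genes Lats1 and Lats2, the angiomotin family gene Amotl2, and the target genes Ctgf, Cyr61 and Ankrd1. They were named by gene symbol, with no threshold on their values but with earlier results of these data known, and each of the 10 matched 1 of the 24369 rows of the expression table. Ctgf and Cyr61 stand there under older symbols and are now called Ccn2 and Ccn1. The RNA came from sorted alveolar type 2 cells (type II pneumocytes), which make and recycle lung surfactant, from wild-type (WT) C57BL6 mice. There was 1 library from postnatal day 7 (P07) and 1 from postnatal day 28 (P28), and no treatment or allele separates them. Neither the number of animals behind a library nor the surface markers used for sorting is given in the sources used here.

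In the Hippo pathway, the MST kinases (genes Stk3 and Stk4) with their scaffold Sav1 activate the LATS kinases, which work with the MOB1 proteins. LATS kinases phosphorylate YAP and TAZ and so keep them out of the nucleus. YAP and TAZ that escape this bind TEAD factors on DNA and switch on genes such as Ctgf, Cyr61, Ankrd1, Amotl2 and Lats2, the last of these closing a feedback loop. In the lung epithelium YAP and TAZ are known for their part in the flattening of cells into type 1 cells and in repair. The activity of the pathway is set largely by phosphorylation, which transcript levels do not show.

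Each value is an RPKM, that is, reads divided by gene length in kilobases and by library depth. The spacing of the lowest values put about 17600000 reads behind the RPKM denominator at P07 and 24400000 at P28. With 1 library per age, no difference has a replicate check and no p-value can be given, so "higher" and "lower" compare these 2 libraries. Intervals are 95% exact counting intervals (Clopper-Pearson for ratios, Poisson for levels), which cover counting error only. All 11 listed markers of type 2 cells were at 12.5 RPKM or more in both libraries, led by Sftpc at 13343 and 24085 RPKM. Markers of club cells, a secretory cell of the airways, were abundant too: Scgb1a1 had 6764 RPKM at P07 and 18104 at P28, and Cyp2f2 had 166 and 343. Xist had 52.7 RPKM at P07 and 0.245 at P28, while the Y-linked gene Ddx3y was listed at 0 at P07 and had 4.01 RPKM at P28. Age and the sex of the animals therefore cannot be told apart in any difference given here.

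TEAD factors recognise a short DNA motif, GGAATG, which reads CATTCC on the other strand, and promoter sequence around it is shown because most of these genes, regulators and targets alike, carried it near a start. RefSeq promoter windows (GRCm38.p6, 250 bases before to 50 after a start) were matched for 8 of the 10 genes, in 12 windows. Tead1 and Ctgf were the other 2. Searched on both strands, the motif was in at least 1 window of 7 of the 8 genes: Yap1, Wwtr1, Tead3, Lats2, Cyr61, Ankrd1 and Amotl2. Among all 32851 windows of the same length 14.7% held it, and among all 27025 genes with a window 16.6%. The genes were chosen for their known place in this pathway, so this count is a description, and a match is not a shown binding site. Capitals mark the motif in each sequence, which runs 5′ to 3′ on the strand of the gene.
Cyr61, chr3:145649986-145650235, minus strand, the 250 bases before the start: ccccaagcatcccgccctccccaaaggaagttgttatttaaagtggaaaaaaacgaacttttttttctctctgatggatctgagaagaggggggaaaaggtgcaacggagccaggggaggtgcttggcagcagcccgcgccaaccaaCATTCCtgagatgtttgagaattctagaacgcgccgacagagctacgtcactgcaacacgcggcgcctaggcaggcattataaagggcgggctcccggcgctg
Ankrd1, chr19:36120027-36120076, minus strand: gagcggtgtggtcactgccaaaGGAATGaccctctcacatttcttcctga
Ankrd1, chr19:36119940-36119989, minus strand: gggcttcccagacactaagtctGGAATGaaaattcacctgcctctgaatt
Amotl2, chr9:102717717-102717766, plus strand: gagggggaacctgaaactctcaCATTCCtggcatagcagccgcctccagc
Wwtr1, chr3:57576019-57576068, minus strand: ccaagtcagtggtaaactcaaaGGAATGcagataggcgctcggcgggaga
Yap1, chr9:8004710-8004759, minus strand: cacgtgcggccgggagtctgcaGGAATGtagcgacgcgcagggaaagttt
Tead3, chr17:28350960-28351009, minus strand: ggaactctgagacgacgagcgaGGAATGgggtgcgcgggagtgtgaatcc

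The first base of the motif lay 103 bases before the start in Cyr61, 65 in Amotl2, 141 in Yap1, and 136 or 170 in Wwtr1, where 2 annotated starts share the same site. Ankrd1 held 2 copies, 210 and 123 bases before its start. Tead3 had 3 annotated starts, with a copy 182 bases before the first, copies 123 and 114 bases before and 3 bases after the second and none in the third window. In Lats2 the motif began 5 bases after the first of 2 starts, and the single window of Lats1 held none. The AP-1 motif TGANTCA (which reads the same on both strands) was in no window of the 8 genes and in 7.81% of all windows. Of the genes that carried the TEAD motif, Cyr61 had an RPKM ratio of P28 to P07 of 0.349, Wwtr1 of 0.533 and Yap1 of 1.29, while Ankrd1, Amotl2, Lats2 and Tead3 had ratios between 0.806 and 1.01.

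**Figure D1:**
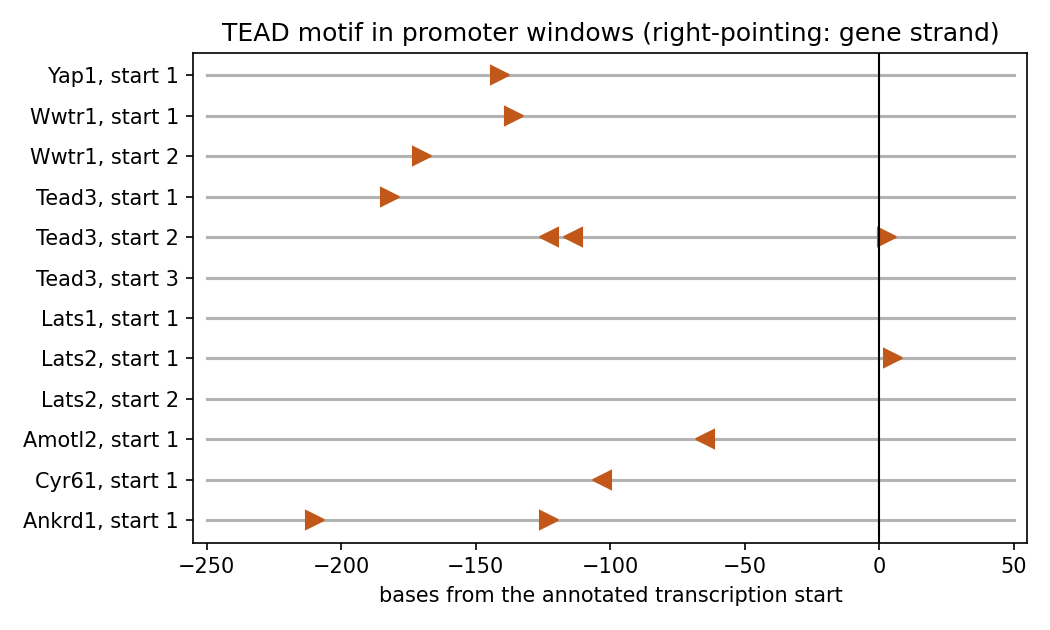
Positions of the TEAD motif GGAATG in the 12 promoter windows of 8 Hippo genes, plotted by the first base of the motif in bases from the annotated transcription start (0). Triangles pointing right are on the strand of the gene and those pointing left on the other strand. Lats1, the second start of Lats2 and the third start of Tead3 have none.

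The pathway's targets Ctgf and Cyr61 were the most abundant of the 10 transcripts at P07 and were the 2 that stood at least 2-fold lower at P28. The regulators differed less, and the co-activators went opposite ways as deposited, Wwtr1 lower and Yap1 higher. On the scale of log2(RPKM + 1), 8 of the 10 reached 1 RPKM in at least 1 library. Of these, 2 were at least 2-fold lower, against 1.96% of the 9653 genes that passed the same filter, and 0 were at least 2-fold higher, against 1.18%. Tead3 and Ankrd1 were below the filter. By the plain RPKM ratio, the interval lay wholly below 1 for Ctgf, Cyr61, Wwtr1 and Tead1. These were 4 of the 8 past the filter, against 35.0% of the 9575 genes past it that had an interval. It lay wholly above 1 for 1 of the 8, Yap1, and for 19.3% of those genes, so at this depth an interval without 1 is common. The intervals of Tead3 and Ankrd1 included 1.

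Ctgf encodes connective tissue growth factor, a secreted matrix protein of the CCN family and the most used readout of YAP and TAZ activity (chromosome 10, 24595442 to 24598683 in GRCm38, plus strand, protein coding). It had 18.8 RPKM at P07 and 4.15 at P28, from about 822 and 252 reads. The P28 library was thus 4.53-fold lower (interval 3.94 to 5.25), and its log2 ratio of -1.94 was the 18th lowest of 9653 genes. Exons of an antisense transcript (Gm15270, not a row of the table) cover 665 bases of Ctgf exons, and whether reads were counted by strand is not stated, so its reads could be included.

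Cyr61, a further secreted CCN protein with many of the same activities, lies on chromosome 3 (145646976 to 145649981, minus strand, protein coding). It had 17.9 RPKM at P07 and 6.24 at P28, from about 635 and 308 reads. It was 2.87-fold lower at P28 (2.50 to 3.30), with a log2 ratio of -1.38, the 75th lowest. The difference was larger in Ctgf than in Cyr61. The ratio of Ctgf to Cyr61 within a library, which no scaling of the libraries can alter, went from 1.05 at P07 to 0.665 at P28, 1.58-fold lower (1.29 to 1.93). Of the other 4 CCN genes none reached 1 RPKM: Nov had 0.480 and 0.327 RPKM, Wisp1 0.226 and 0.0486, Wisp2 was listed at 0 at P07 with 0.412 at P28, and Wisp3 was listed at 0 in both.

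Ankrd1 encodes a nuclear and sarcomeric ankyrin repeat protein, strongly expressed in heart muscle and a classic YAP target (chromosome 19, 36111961 to 36120099, minus strand, protein coding). It was the lowest of the 10 genes in both libraries, at 0.515 RPKM at P07 and 0.415 at P28, or about 18 and 20 reads. The ratio was 0.806 with an interval of 0.401 to 1.60, so a level lowered 2-fold could not be told from an equal one at this depth. Ankrd2, a muscle gene of the same family, was listed at 0 in both libraries, and Ankrd23 had 0.378 and 0.437 RPKM. The 6 heart muscle markers summed to 0.909 and 0.331 RPKM, with Nppa listed at 0 in both libraries.

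Amotl2 and Lats2, which are targets that also restrain YAP and TAZ, were at nearly the same level at both ages. Amotl2, of the angiomotin family that holds YAP at cell junctions (chromosome 9, 102716672 to 102733418, plus strand, protein coding), had 3.43 RPKM at P07 and 3.19 at P28, a ratio of 0.931 (0.792 to 1.10). Lats2 (chromosome 14, 57689662 to 57758388, minus strand, protein coding) had 5.34 and 5.36 RPKM, a ratio of 1.00 (0.892 to 1.13). Its exons share 2955 bases with Gm49361, a protein-coding gene model on the same strand that is not a row of the table. The 5 target genes thus did not move alike. Ctgf relative to Lats2 went from 3.52 at P07 to 0.774 at P28, 4.55-fold lower (3.78 to 5.49), and Cyr61 relative to Lats2 was 2.88-fold lower (2.40 to 3.46). Amotl2 relative to Lats2 had 0.642 and 0.596, and the interval of that change (0.758 to 1.14) included 1.

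**Figure D2:**
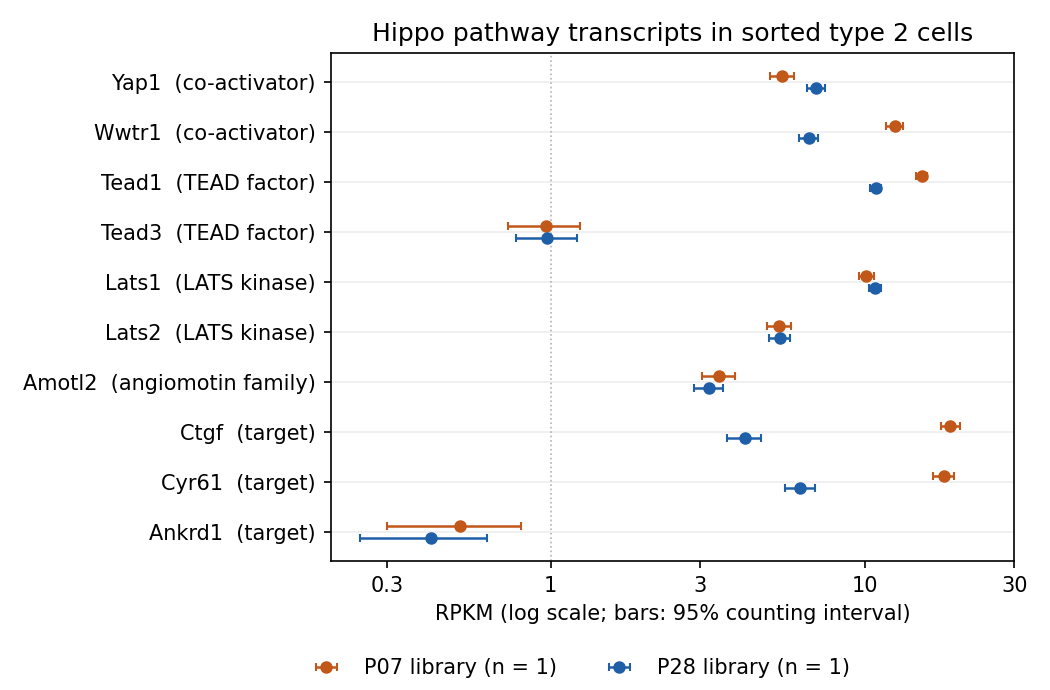
RPKM of the 10 Hippo genes on a log axis in the P07 library (orange) and the P28 library (blue), 1 library per age, with 95% counting intervals as bars; the dotted line marks 1 RPKM. Ctgf goes from 18.8 to 4.15 and Cyr61 from 17.9 to 6.24, while Lats1, Lats2, Amotl2 and Tead3 overlap between the libraries.

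The balance of the 2 co-activator transcripts changed between the libraries. Wwtr1, which encodes TAZ (chromosome 3, 57455649 to 57575910, minus strand, protein coding), had 12.5 RPKM at P07 and 6.65 at P28, from about 1030 and 763 reads. It was 1.88-fold lower at P28 (1.71 to 2.07), short of the 2-fold rule, with a log2 ratio of -0.82 that was the 329th lowest of 9653. Yap1 (chromosome 9, 7931999 to 8004596, minus strand, protein coding) had 5.45 RPKM at P07 and 7.01 at P28, a ratio of 1.29 (1.15 to 1.44). With both libraries set to the same total RPKM the Yap1 ratio became 0.979, so its direction rests on the scaling. The ratio of Wwtr1 to Yap1 does not: it was 2.29 at P07 and 0.948 at P28, 2.42-fold lower (2.09 to 2.80). At P07 the TAZ transcript was thus the more abundant of the pair per length, and at P28 their levels had overlapping intervals.

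Among the TEAD genes, Tead1 was by far the most abundant in both libraries. Tead1 (chromosome 7, 112679318 to 112906807, plus strand, protein coding) had 15.2 RPKM at P07 and 10.8 at P28, from about 2662 and 2642 reads. It was 1.40-fold lower at P28 (1.33 to 1.48). Tead3 (chromosome 17, 28331671 to 28350817, minus strand, protein coding) had 0.964 and 0.975 RPKM, a ratio of 1.01 with the wide interval of 0.717 to 1.45. Tead4 had 1.44 and 1.14 RPKM (ratio 0.790, 0.569 to 1.08). Tead2, the TEAD gene known from early embryos, was below 1 RPKM in both, at 0.711 and 0.0943, or about 42 and 8 reads, 7.54-fold lower at P28 (3.39 to 18.0). Tead1 exceeded Tead4 by 10.6-fold at P07 and 9.54-fold at P28, and the change in that ratio had an interval of 0.658 to 1.26. Relative to Yap1, Tead1 went from 2.79 to 1.55, 1.80-fold lower (1.60 to 2.04).

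The LATS kinase genes differed little between the ages. Lats1 (chromosome 10, 7681214 to 7716460, plus strand, protein coding) had 10.1 RPKM at P07 and 10.8 at P28, a ratio of 1.07 (0.992 to 1.14). The ratio of Lats1 to Lats2 was 1.90 at P07 and 2.01 at P28, and the interval of that change was 0.924 to 1.22. Lats1 was the higher of the pair in both libraries.

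The order of the levels changed with age. At P07 it ran Ctgf, Cyr61, Tead1, Wwtr1, Lats1, Yap1, Lats2, Amotl2, Tead3 and Ankrd1, and counting intervals of neighbours overlapped for Ctgf with Cyr61, Yap1 with Lats2, and Tead3 with Ankrd1. At P28 it ran Tead1, Lats1, Yap1, Wwtr1, Cyr61, Lats2, Ctgf, Amotl2, Tead3 and Ankrd1, with overlaps for Tead1 with Lats1 and for each neighbouring pair from Yap1 to Lats2. Ctgf moved from first place to seventh. Among all 9653 genes past the filter, 93.1% had a lower RPKM than Ctgf at P07 and 60.9% at P28, against 67.2% and 69.3% for Lats2. Levels of different genes are compared per length, and depend on the gene model the authors used.

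The choice of scaling mattered for the small differences. The total RPKM was 108758 at P07 and 143071 at P28, and setting both to the same total shifted the median log2 ratio over the genes past the filter by -0.28 (-0.08 as deposited, -0.36 after). Setting the same upper quartile shifted that median by 0.03. Setting the same total without the 10 most abundant genes of each library shifted it by -0.02. At the same total RPKM over all genes, Wwtr1 joined Ctgf and Cyr61 as at least 2-fold lower (log2 ratio -1.15). The plain ratios of Lats1 and Lats2 became 0.810 and 0.763. Ctgf then had a log2 ratio of -2.25 and Cyr61 of -1.72. Over all 8 alternative settings of pseudocount, filter and scaling, the log2 ratio ran from -2.25 to -1.38 for Ctgf, from -1.72 to -1.03 for Cyr61, from -1.15 to -0.59 for Wwtr1 and from -0.81 to -0.35 for Tead1.

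**Figure D3:**
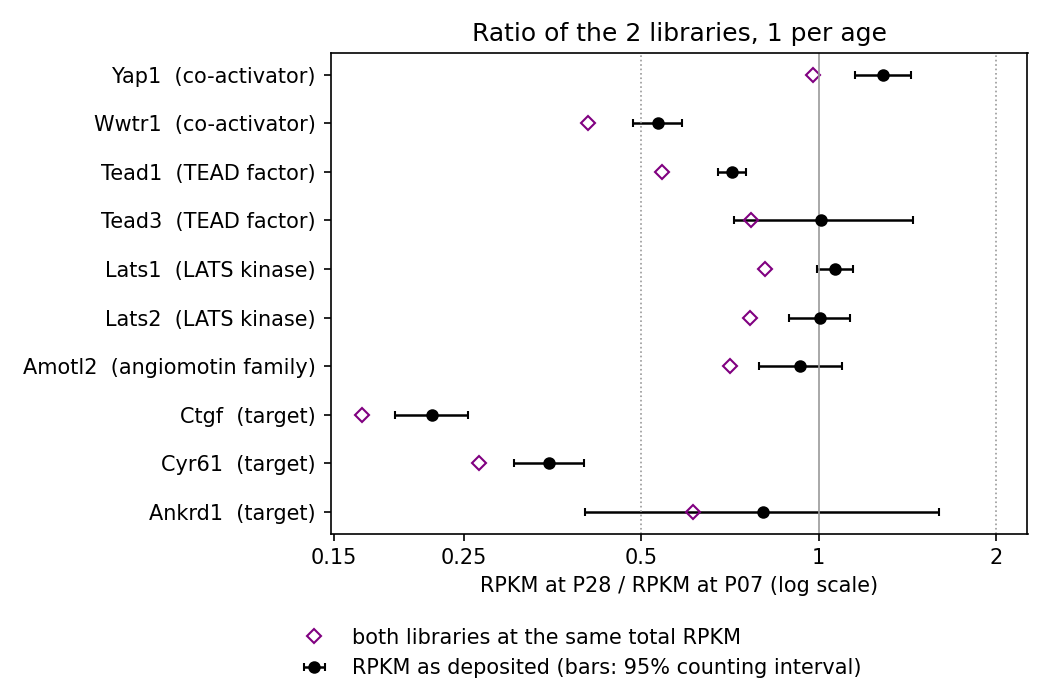
Ratio of the RPKM at P28 to that at P07 for each of the 10 genes on a log axis. Black points are the values as deposited with 95% counting intervals, open diamonds the same ratios after both libraries were set to the same total RPKM, and dotted lines mark 2-fold. Ctgf (0.221) and Cyr61 (0.349) stand left of the 2-fold line on both scales, and Yap1 moves from 1.29 to 0.979.

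Differences of other components of the pathway were mostly small. A list of 64 further components (kinases and their partners, polarity and membrane scaffolds, proteins that bind YAP and TAZ, and the other TEAD and VGLL genes) had 53 genes past the filter, of which 0 were at least 2-fold lower and 0 higher on the scale of log2(RPKM + 1), against 1.96% and 1.18% of all genes past the filter. A count of 0 among 53 genes is near this background. Their median log2 ratio was -0.19, beside -0.08 for all genes, and the range was -0.76 to 0.85. By the plain RPKM ratio, which carries no pseudocount, some genes of low level differed by more. The atypical cadherin genes Fat4 and Dchs1 had 0.793 and 0.141 RPKM (5.61-fold lower, 4.15 to 7.63) and 0.283 and 0.0496 (ratio 0.176, 0.0882 to 0.328). Ajuba, a LIM protein gene, had 1.90 and 0.805 RPKM (2.35-fold lower, 1.72 to 3.22). The MST kinase genes Stk3 (4.06 and 3.53 RPKM, ratio 0.871, 0.731 to 1.04) and Stk4 (6.99 and 6.43, ratio 0.920, 0.829 to 1.02) and their scaffold gene Sav1 (6.50 and 5.96, ratio 0.917, 0.801 to 1.05) had intervals that included 1. So did Nf2, the gene of the membrane scaffold merlin (2.31 and 2.58 RPKM, ratio 1.11, 0.927 to 1.34).

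The MOB1 genes, whose products activate LATS kinases, went opposite ways. Mob1b had 5.46 RPKM at P07 and 9.59 at P28, a ratio of 1.76 (1.62 to 1.90), and Mob1a had 4.62 and 3.83, a ratio of 0.829 (0.718 to 0.958). Mob1b remained above 1 with equal totals, at a ratio of 1.34. Vgll4, which competes with YAP for TEAD factors, had 7.04 and 5.04 RPKM (ratio 0.716, 0.603 to 0.851). The angiomotin gene Amotl1 had 6.63 and 4.90 RPKM (ratio 0.739, 0.678 to 0.806), and Amot, below 1 RPKM in both, had 0.463 and 0.174. At the ends of the list, named after their values were seen, stood the junction scaffold gene Tjp1 (25.9 and 14.9 RPKM, at least 2-fold lower only at the same total) and Sfn (0.880 and 2.39, plain ratio 2.72, 1.72 to 4.39), which encodes an epithelial phosphoprotein-binding adaptor of the family that retains YAP in the cytoplasm.

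Further reported targets of YAP and TAZ were described by a list of 22 genes used as a YAP and TAZ signature, which holds 5 of the 10 Hippo genes, and a second list of 8. Without the Hippo genes they came to 25, of which 16 passed the filter, 2 were at least 2-fold lower at P28 and 0 higher, against 1.96% and 1.18% of all genes past the filter. The median log2 ratio of the 16 was -0.33. The 2 lower genes encode secreted proteins, as Ctgf and Cyr61 do. Tgfb2, a transforming growth factor beta ligand, had 7.19 RPKM at P07 and 1.98 at P28, 3.63-fold lower (3.13 to 4.21). Thbs1, thrombospondin 1, had 7.58 and 2.41, 3.15-fold lower (2.76 to 3.58).

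Of the 22, the other genes past the filter with the largest log2 ratios were within 2-fold on the scale of log2(RPKM + 1). F3, tissue factor, had 7.35 and 4.36 RPKM (ratio 0.592, 0.488 to 0.716), and Ptpn14, a phosphatase that binds YAP, 3.00 and 1.59 (0.529, 0.466 to 0.602). Nuak2, a kinase gene, had 1.16 and 0.519 RPKM (ratio 0.448, 0.291 to 0.674). Arhgef17 had 3.80 and 2.40 (0.632, 0.565 to 0.706), and Nt5e, an ectonucleotidase, 4.82 and 3.51 (0.728, 0.624 to 0.848). Below the filter, 4 genes were further from a plain ratio of 1 than these 5. Fjx1 had 0.772 and 0.0838 RPKM (9.22-fold lower, 4.23 to 28.7), Ccdc80 0.685 and 0.234 (2.93-fold lower, 1.77 to 5.10), and Axl, a receptor tyrosine kinase gene, 0.313 and 0.00800, the latter about 1 read (ratio 0.0256, 0.000759 to 0.192). Igfbp3, a secreted binding protein gene, had 0.163 and 0.450 RPKM and went the other way (ratio 2.76, 1.18 to 7.54). Across the 25, 12 of the 16 past the filter had a log2 ratio below 0, as did 5864 of all 9653 genes. Of the 17 remaining signature genes, 11 had a promoter window. Of these, 3 (Axl, Crim1 and Ptpn14) held the TEAD motif, against 16.6% of all genes with a window. In a list of 11 this count is near that background.

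Markers of other cells that express Ctgf and Cyr61 also differed between the libraries. The counts that follow stand against 1.96% of all genes past the filter at least 2-fold lower and 1.18% higher. Of 12 endothelial markers, 9 passed the filter and 7 were at least 2-fold lower at P28. Among the 7, Emcn, Cldn5 and Erg passed only through P07, with 0.751, 0.546 and 0.270 RPKM at P28. The summed level of the 12 went from 47.4 to 16.9 RPKM with none at 0. Of 13 fibroblast markers, 10 passed, 3 were lower and 1 higher, and the sum went from 62.2 to 33.7 RPKM, with Lum and Inmt listed at 0 at P07. Postn passed only through P07 and Inmt only through P28. The list went both ways: of the 10, 8 had a log2 ratio below 0 and 2 above. Dcn had 0.490 and 1.35 RPKM (ratio 2.75, 1.94 to 4.02), and Pdgfra, below the filter, 0.152 and 0.730 (4.81, 2.96 to 8.50). Type 1 cell markers, all 10 past the filter, had 2 lower, and their sum went from 441 to 260 RPKM. Of the 10, 9 had a log2 ratio below 0 and 1 above. Their median was -0.80, beside -0.08 for all genes past the filter. At the same total RPKM 7 of the 10 were at least 2-fold lower, against 388 of 9653 genes. Smooth muscle and pericyte markers summed to 5.70 and 1.23 RPKM, with Actg2 and Rgs5 listed at 0 at P28, and mesothelial markers to 7.79 and 4.91. The mesothelial markers went both ways. Msln had 5.24 and 1.19 RPKM, while Upk3b had 1.23 and 2.04 (ratio 1.66, 1.26 to 2.21). Lrrn4, below the filter, had 0.294 and 0.714 (2.43, 1.46 to 4.34), and the intervals of Wt1 and Upk1b included 1. The 6 leukocyte markers summed to 2.90 and 2.68 RPKM, with Marco and C1qa listed at 0 in both. The 6 airway markers went the other way, from 7227 to 18973 RPKM, with 4 of them at least 2-fold higher at P28. The part of these cells in the lower Ctgf, Cyr61, Tgfb2, Thbs1 and Wwtr1 was not tested, and in such bulk RNA fewer cells of a type and less RNA per cell cannot be told apart.

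**Figure D4:**
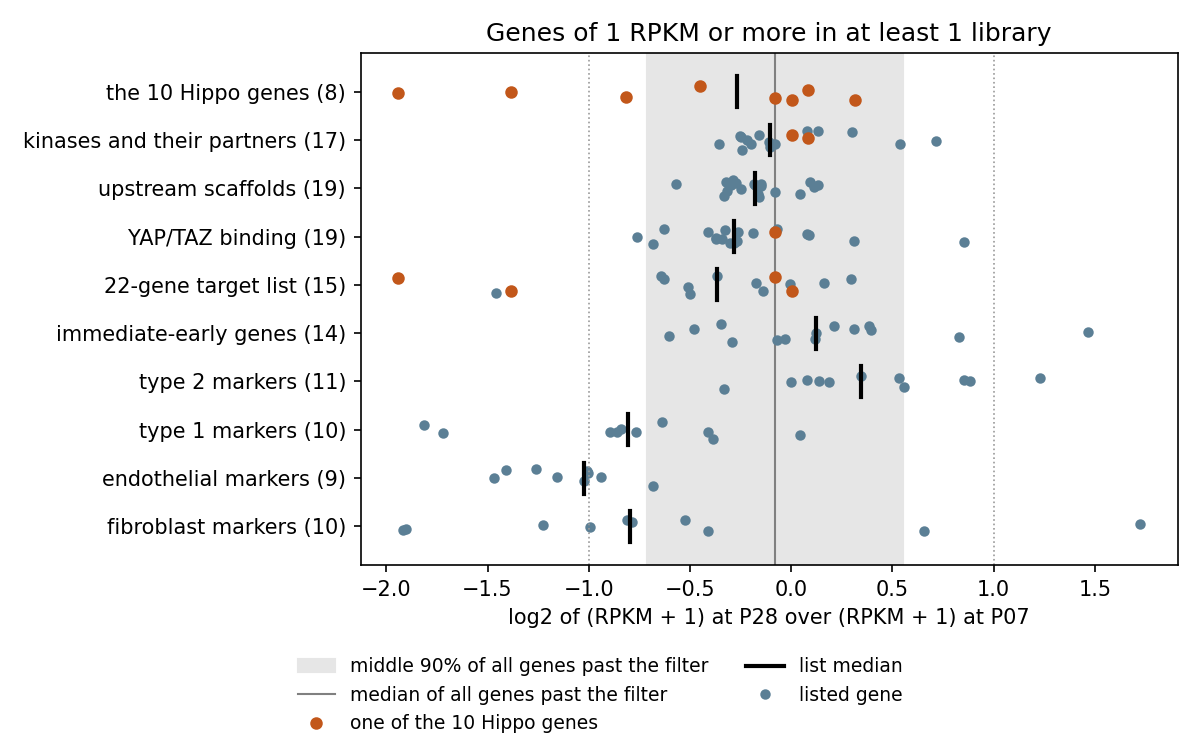
Log2 ratio of (RPKM + 1) at P28 over P07 for each gene past the filter in 10 lists, with the number of such genes in brackets. Orange points are Hippo genes of the 10, black bars list medians, the grey band the middle 90% of all genes past the filter, and dotted lines 2-fold. Ctgf and Cyr61 lie at -1.94 and -1.38, below every point of the kinase, scaffold and YAP/TAZ binding lists. Cyr61 lies within the ranges of the endothelial, fibroblast and type 1 markers. On this scale Ctgf lies below the lowest marker of each, which is at -1.47, -1.92 and -1.81. That order rests on the pseudocount. By the plain ratio Ctgf (0.221) was above the endothelial markers Erg (0.173) and Emcn (0.206). It was also above the fibroblast markers Postn (0.0857) and Fbln5 (0.195). The lowest type 1 marker by that ratio was Igfbp2, at 0.272.

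Ctgf and Cyr61 are also immediate-early genes, which respond within minutes to serum, stretch or cell dissociation. The 14 other immediate-early genes listed went both ways. None was at least 2-fold lower at P28 and 1 was higher, against 1.96% and 1.18% of all genes past the filter. In a list of 14 such counts are near this background. Their median log2 ratio was 0.12 as deposited and -0.26 at the same total RPKM, and their sum went from 339 to 426 RPKM. The higher gene was Zfp36, an mRNA-destabilising protein gene, with 43.5 RPKM at P07 and 122 at P28, 2.81-fold higher (2.68 to 2.94). Fos had 35.8 and 35.1 RPKM and Egr1 19.8 and 21.7. As deposited, the interval of the plain ratio lay wholly above 1 for 7 of the 14, against 19.3% of 9575 genes. This count rests on the scaling. At the same total RPKM the plain ratios of Egr1, Dusp1 and Atf3 became 0.832, 0.827 and 0.962. Fosb and Btg2 then had 1.00 and 1.01, and Junb and Zfp36 1.58 and 2.13. As deposited, the interval lay wholly below 1 for 5 of the 14, which is near the 35.0% over the 9575 genes. Lowest of the 5 were Nr4a1, a nuclear receptor gene, with 4.49 and 2.61 RPKM (1.72-fold lower, 1.40 to 2.13), and Klf4, with 6.01 and 4.02 (1.49-fold lower, 1.27 to 1.76). The other 3 were Ier3, Klf6 and Jun, at ratios of 0.768, 0.813 and 0.952.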

How the data were processed

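Per the labels' protocols, libraries from sorted type 2 cells were prepared with a Nextera XT kit and read from both ends on an Illumina machine. The authors deposited RPKM values, 1 column per library, per the file headers; 0 columns were left unused. Of tools and builds, TopHat, TopHat2 2.0.9, GRCm38 and mm10 are listed without a role, per the submitters' processing notes. Not given in the sources used here are the program behind the RPKM values, its annotation and its filters.

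Symbols were matched, through RefSeq synonyms where needed, to a GRCm38 annotation from GENCODE for positions and transcript lengths (23928 of 24369 rows). For genes with 1 transcript, low RPKM values times length fell within 0.05 of whole steps in 62.9% of 715 genes for the P07 library and 63.6% of 648 for the P28 library (chance would give 10%). The steps were 0.0569 and 0.0409 RPKM for 1 read on 1 kilobase. Genes with several transcripts fell on these steps in 42.6% and 41.9% with the longest transcript and in 11.2% and 9.91% with the mean length. The longest was therefore used for read numbers and intervals in place of the mean first planned, and these are approximate. PCR duplicates are not known, so intervals cover counting error only.

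The log2 ratio used a pseudocount of 1, which understates differences of low genes, and a filter of 1 RPKM in at least 1 library; genes were called at 2-fold. Plain ratios and intervals carry no pseudocount. Ratios of ratios have exact conditional intervals. There was no test, since each age had 1 library. Alternatives were pseudocounts of 0.1 and 5, no filter or 5 RPKM, 4 other scalings and 2 other transcript lengths.

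Members and lists were chosen with earlier results of these data known. Named were the 10 members, 11 fixed pathway genes (Stk3, Stk4, Sav1, Mob1a, Mob1b, Nf2, Tead2, Tead4, Vgll4, Amot, Amotl1), listed pathway genes past 2-fold and the 6 other genes of the 22-gene target list past the filter with the largest absolute log2 ratio. Named after their values were seen were Tjp1, Sfn, Fat4, Dchs1, Ajuba, Fjx1, Ccdc80, Axl, Igfbp3 and the other CCN and ankyrin repeat genes. So were the immediate-early genes, Xist, Ddx3y, Sftpc, Scgb1a1 and Cyp2f2. Marker lists are given by sums and counts, and single markers printed beside them were also named after their values were seen. The calculations were tested on simulated data. Python 3.11.15, numpy 2.4.6, pandas 2.3.3, scipy 1.17.1 and matplotlib 3.10.9 were used.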

Additional observations from a re-analysis of the deposited data

How the results depend on the processing

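Over the 8 alternative settings of pseudocount, filter and scaling, Ctgf and Cyr61 were at least 2-fold lower in each, the number of Hippo genes lower was 2, or 3 at the same total RPKM, and the number higher was 0. Yap1 had a log2 ratio below 0 in 1 setting (-0.03 at the same total), Lats1 in 1 and Lats2 in 2. Of the 88 other pathway genes and targets, 68 passed the filter of 1 RPKM and could be called. With a pseudocount of 0.1, 5 of these 68 were lower and 1 higher, and over all 9653 genes past the filter 530 and 226. With a pseudocount of 5 none of the 68 was lower (0), and over all genes past the filter 34 were lower and 39 higher. A filter of 5 RPKM gave 93 lower and 73 higher genes, and the same total gave 388 and 62. As reported, the counts were 189 and 114, so 37.6% of the genes apart were higher, against 13.8% at the same total and 48.8% with the median log2 ratio set to 0. With the mean transcript length each of the 10 intervals stayed on its side of 1. With the shortest the Yap1 interval included 1, and Tead3 (11 bases) was under 1 read and had none. No paired analysis was possible because each age had 1 library. Differences of Ankrd1 and Tead3 are limited by 18 to 82 reads.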

Other observations

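Genes of the contractile cytoskeleton that respond to serum response factor, a further regulator of Ctgf and Cyr61, formed a list of 12, of which 8 passed the filter. At P28 2 were at least 2-fold lower and 0 higher, against 1.96% and 1.18% of all genes past the filter. The 2 lower genes, Acta2 and Myl9, passed the filter only through the P07 library. Acta2, smooth muscle actin, had 2.03 RPKM at P07 and 0.458 at P28, 4.43-fold lower (2.73 to 7.40), and Myl9, a myosin light chain, had 1.84 and 0.375, 4.89-fold lower (2.43 to 11.3). Both are also made by smooth muscle cells and myofibroblasts, and Acta2 is on the smooth muscle marker list as well. The abundant actin gene Actb had 278 and 295 RPKM and Tpm1, a tropomyosin, 42.2 and 41.2, and Srf itself had 2.33 and 2.25. Flna, Vcl and Actg1 were lower by less than 2-fold, at ratios of 0.676 (0.624 to 0.733), 0.795 (0.723 to 0.875) and 0.812 (0.781 to 0.845). Of the 8, 7 had a log2 ratio below 0, and the median was -0.30, beside -0.08 for all genes past the filter. Actb, Tpm1, Srf, Flna, Vcl and Actg1 were named after their values were seen.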
